A study of Mus musculus with 6 samples.

Results

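The genes described here make sterols and fatty acids, sense sterol levels, or belong to the cholesterol export programme of the liver X receptors (LXRs). They were chosen by name as a list of 33 genes, of which 31 had a probe set that maps to that gene alone, out of 18193 genes with such a probe set on the array. The expression of Acat2 and Nr1h2 was not analysed here. Each gene is represented by the 1 of its probe sets with the highest mean over all arrays, and the 31 genes have 71 probe sets between them. By role, 13 are enzymes of sterol synthesis, 5 sense or carry sterols, 6 make or modify fatty acids and 7 belong to LXR signalling, efflux and lipoprotein handling.

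The study measured RNA from mouse macrophages on 6 one-colour Affymetrix arrays. One array held wild-type cells given medium and 1 held wild-type cells given lipopolysaccharide (LPS, a bacterial cell wall component), and the series uses this LPS pair to define LPS-inducible genes. The other 4 arrays, called the Trib1-line arrays, held LPS-treated macrophages of wild-type mice (n = 2) and of Trib1-deficient mice (n = 2), numbered 1 and 2 within each genotype. All groups but the medium array therefore share LPS treatment. Tissue source, LPS dose, time, strain, sex, age and the design of the Trib1 allele are not given in the labels. Whether 2 arrays of a genotype stem from different mice is not stated, and p-values then speak only to the spread between the arrays themselves, which may be technical.

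Sterol synthesis runs from acetyl-CoA through the mevalonate pathway to squalene and then by ring closure and trimming to cholesterol. When membrane sterol is low, the escort protein SCAP carries SREBP transcription factors to the Golgi for cleavage, and they switch on these enzymes, while INSIG proteins hold SCAP back when sterol is plentiful. When oxysterols accumulate, the LXRs switch on the exporters ABCA1 and ABCG1, apolipoprotein E and lipid transfer proteins. Macrophages load and unload cholesterol as they clear cells and lipoproteins, and Toll-like receptor signals are known to alter both programmes.

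Trib1, which encodes a pseudokinase that directs C/EBP factors to a ubiquitin ligase, did not separate the genotypes. The brighter of its 2 probe sets had scaled intensities of 17.9 and 17.5 for wild type, against 88.1 and 20.9 for the knockout label, and of 383.5 and 189.3 for medium and LPS of the LPS pair. The position of the probe set relative to the deleted part is not given, so this level checks no label, and every genotype direction rests on the labels. Values are intensities rescaled to a common trimmed mean, and values under a floor of 29.9 were set to it before log2 was taken. Depending on the array, 57.9% to 63.0% of probe sets exceeded this floor, and 27 of the 31 genes cleared it on all 6. The 8 macrophage markers summed to between 74332 and 91270 on every array, while of 4 adipocyte genes measured, Adipoq, Cidec and Lep stayed under the floor on all and Retn lay between 63.1 and 127.8. The LPS pair and the Trib1-line arrays differed in sex: Xist measured 1616 and 980.5 on the pair and at most 5.56 on the other 4. They also differed in the authors' scaling, and B cell markers summed to 1268 and 2319 on the pair and to between 252.3 and 583.8 on the others.

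The promoters of the sterol enzymes share a short letter pattern that most promoters lack, and 5 upstream stretches are shown because the genes behind them recur in the results. RefSeq promoters on GRCm38.p6, from 250 bases before to 50 after each start, were present for 25 of the 33 listed genes. These 25 include Acat2 and Nr1h2 but not Fdps, Fdft1, Sqle, Stard4, Scd1, Scd2, Abcg1 and Lpl. The CCAAT box, the letters bound by NF-Y, a usual partner of SREBP, was searched as CCAAT on both strands. It occurred in 10 of 11 sterol synthesis genes, against 41.06% of all 27025 genes with a promoter in the table. It occurred in 3 of 4 sterol-sensing, 2 of 4 fatty acid and 2 of 6 LXR and efflux genes. A sterol regulatory element was searched as TCACNCCAC on both strands and was found in Hmgcs1 alone among the 25, against 1.44% of all genes. An LXR-type repeat, AGGTCA followed after any 4 bases by AGGTCA, was searched likewise and was in none of the 25 and in 0.01% of all genes. A match is a description of these letters and not a measured binding site. In the stretches below, written 5′ to 3′ on the strand of the gene and ending before its start, capitals mark the CCAAT box (ATTGG where it lies on the opposite strand) and, in Hmgcs1, the sterol regulatory element TCACCCCAC.
Hmgcs1, chr13:119690101-119690330, + strand: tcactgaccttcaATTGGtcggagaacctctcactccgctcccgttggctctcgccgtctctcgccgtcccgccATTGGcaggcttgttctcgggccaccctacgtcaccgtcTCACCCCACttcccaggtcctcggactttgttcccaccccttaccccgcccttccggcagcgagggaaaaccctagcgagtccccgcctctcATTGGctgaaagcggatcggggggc
Idi1, chr13:8885541-8885605, + strand: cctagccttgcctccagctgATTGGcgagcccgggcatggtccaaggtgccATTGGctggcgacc
Cyp51, chr5:4104702-4104746, - strand: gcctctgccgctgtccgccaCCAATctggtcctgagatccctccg
Insig1, chr5:28071176-28071220, + strand: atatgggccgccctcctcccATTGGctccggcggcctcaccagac
Mylip, chr13:45389532-45389699, + strand: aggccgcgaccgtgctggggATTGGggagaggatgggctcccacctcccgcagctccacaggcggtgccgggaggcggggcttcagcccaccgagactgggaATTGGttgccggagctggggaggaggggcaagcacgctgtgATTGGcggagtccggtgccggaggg
Hmgcs1, Idi1, Cyp51 and Insig1 belong to SREBP-driven sterol control, and Mylip is the gene of the 31 with the smallest genotype p.

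**Figure D1:**
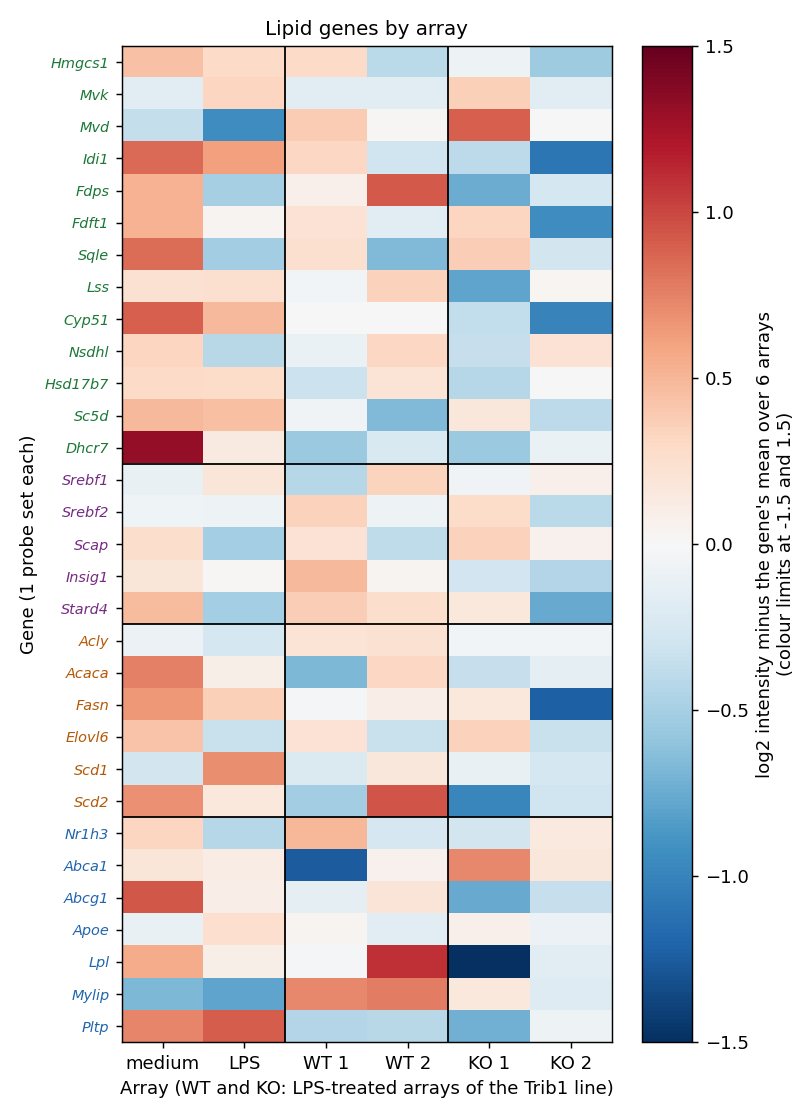
Each cell is a gene's log2 intensity on 1 array minus that gene's mean over the 6 arrays, with genes ordered by role (label colours and lines) and arrays as columns; red is above and blue below the mean, with colours cut at -1.5 and 1.5. Sterol synthesis genes are mostly red in the medium column, where their median is 0.49. The median is 0.24 in the LPS column and 0.0 and -0.16 in the columns of wild type 1 and 2. These genes are mostly blue in both knockout-labelled columns, where the median is -0.35 and -0.26.

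Most sterol synthesis genes measured lower after LPS than in medium, by small amounts. Squalene epoxidase, Sqle, which commits squalene to sterols, went from 346.0 in medium to 135.0 on the LPS array (2.56-fold lower). Sqle measured 228.3 and 122.7 in the wild type of the Trib1 line, also given LPS, so all 3 wild-type LPS arrays lay under medium. Dhcr7, the last enzyme before cholesterol, went from 109.7 to 48.5 (2.26-fold lower) and measured 27.7 and 37.6 on the other wild-type LPS arrays, the first of these under the floor. Fdps, which makes farnesyl diphosphate, went from 658.8 to 324.8 (2.03-fold lower). Its other wild-type LPS values of 482.6 and 865.8 lay on either side of medium, so its lower level was not shared by all LPS arrays.

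No gene of the 31 differed 4-fold between the LPS and medium arrays, the size used for LPS-inducible genes, where 1.21% of all genes were 4-fold higher and 0.672% 4-fold lower. Those 3 enzymes were the only genes of the list at least 2-fold apart, where 6.72% of all genes were 2-fold lower and 5.44% 2-fold higher. Fdps fell short of 2-fold with quantile normalization (log2 -0.90) and on the log2(value + 16) scale (-0.99), and Dhcr7 did so on that scale (-0.96) and with the floor at the 60th percentile (-0.64). With 1 array per condition there is no test and no error for these ratios. For comparison, Il6 went from 58.97 to 17318 on the same pair.

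Taken by direction, 25 of the 31 genes were lower on the LPS array than in medium, against 58% of all 13700 genes measurable on either array. The median log2 ratio was -0.41 over the 13 sterol synthesis genes, against -0.11 over all genes. On wild type 1 and 2 of the Trib1 line the same sterol synthesis median against medium was -0.45 and -0.67, with -0.04 and 0.00 over all genes. All 3 wild-type LPS arrays lay under medium for 9 of 13 sterol synthesis genes, against 33% of all genes. These 9 were Hmgcs1, which opens the mevalonate pathway, Idi1, the isopentenyl diphosphate isomerase, Fdft1, which makes squalene, Sqle, Cyp51, Nsdhl and Hsd17b7, which trim lanosterol, Sc5d and Dhcr7. On the LPS array Hsd17b7, Sc5d and Hmgcs1 lay under medium by little (log2 -0.01, -0.04 and -0.15). Dimmer probe sets of Hsd17b7 (log2 0.74 on the LPS array), Sc5d, Hmgcs1 and Fdft1 lay above medium on at least 1 of the 3 arrays. Others of Hsd17b7, Hmgcs1, Fdft1, Idi1 and Cyp51 lay under it on all 3. The ratios of the 3 wild-type LPS arrays share the 1 medium array. Those of the 2 Trib1-line wild types cross from the LPS pair to the Trib1 line, which differ in sex, scaling and B cell markers as given above. The part of these differences in the ratios was not tested.

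Exceptions to that direction stood in the early and middle steps. Mvk, the mevalonate kinase, was above the floor on 2 of 6 arrays, at 41.9 on the LPS array and 43.0 on knockout-labelled 1. Mvd, which decarboxylates mevalonate diphosphate, measured 72 in medium, 48 after LPS and, in the wild type of the Trib1 line, 119 and 93. Lss, the lanosterol-forming cyclase, had log2 ratios of 0.01, -0.27 and 0.11 over medium on the LPS array, wild type 1 and wild type 2.

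Of the 5 genes that sense or carry sterols, 4 measured lower on the LPS array, with log2 ratios from -0.99 to 0.29. Srebf2, which encodes the main SREBP of sterol genes, measured 427 in medium and 426 after LPS (log2 -0.01), and Srebf1 459 and 561. The second Srebf2 probe set went the other way, from 441.2 to 522.8 (log2 0.25), with 458.1 and 508.1 in the wild type of the Trib1 line. Insig1, which holds SCAP in the endoplasmic reticulum and is itself an SREBP target, measured 842.9 in medium, 749.1 after LPS and, in the wild type of the Trib1 line, 1034 and 763.3. Scap went from 241 to 141 and Stard4, a carrier of cholesterol between membranes, from 204.1 to 102.8. Stard4 lay at 190.4 and 176.9 on wild type 1 and 2 of the Trib1 line, under medium by little. The median over these 5 genes was -0.17 on the LPS array, near the -0.11 of all genes.

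Among fatty acid genes, the desaturase Scd1 stood apart from the rest. Scd1 measured 91.6 in medium and 178.6 after LPS (log2 0.96) and, in the wild type of the Trib1 line, 95.2 and 124.0, the 1 gene of the 31 above medium on all 3, as were 21.9% of all genes. Its dimmer probe set measured 38.8 in medium and 52.5 after LPS but 15.9, under the floor, on wild type 1. The other 5 were lower on the LPS array, with log2 ratios from -0.76 for the elongase Elovl6, where the LPS value of 18.5 was under the floor, to -0.18 for Acly, which supplies cytosolic acetyl-CoA. Acaca, the acetyl-CoA carboxylase, measured 233 in medium, 146 after LPS and, in the wild type of the Trib1 line, 86 and 171. Fasn, the fatty acid synthase, measured 110 in medium and 90.0, 68.5 and 74.9 on the 3 wild-type LPS arrays. The group's median log2 ratio of -0.41 on the LPS array was -0.09 on wild type 2 of the Trib1 line, where Acly and Scd2 lay above medium.

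LXR and efflux genes went both ways on the LPS array, with a median log2 ratio of -0.12, near the -0.11 of all genes. Abcg1, which passes cholesterol to HDL, went from 1864 in medium to 1044 after LPS and stood at 888.4 and 1115 in Trib1-line wild types. All 3 were lower than medium, with log2 ratios of -0.84, -1.07 and -0.74. Abca1, which passes cholesterol to lipid-poor apolipoprotein, measured 1168, 1116, 434.0 and 1076 on the same arrays, lower on wild type 1 alone by a clear margin. Apoe, a lipid-carrying protein that macrophages secrete, held between 19774 and 26269 on all 6 arrays. Nr1h3, which encodes LXR alpha, measured 708 in medium, 423 after LPS and, in the wild type of the Trib1 line, 801 and 477. Lpl, the lipoprotein lipase gene, measured 11474 in medium, 8317 after LPS and 7648 and 16713 in Trib1-line wild types, on either side of medium.

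For 2 LXR targets the Trib1-line arrays stood away from both arrays of the LPS pair. Mylip, the ubiquitin ligase that degrades lipoprotein receptors, measured 587.3 in medium and 540.9 after LPS but 1544 and 1595 in Trib1-line wild types. Pltp, the phospholipid transfer protein, measured 15953 and 18031 on the pair and, in the wild type of the Trib1 line, 7046 and 7207. Line, sex and scaling cannot be told apart from each other in this contrast.

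**Figure D2:**
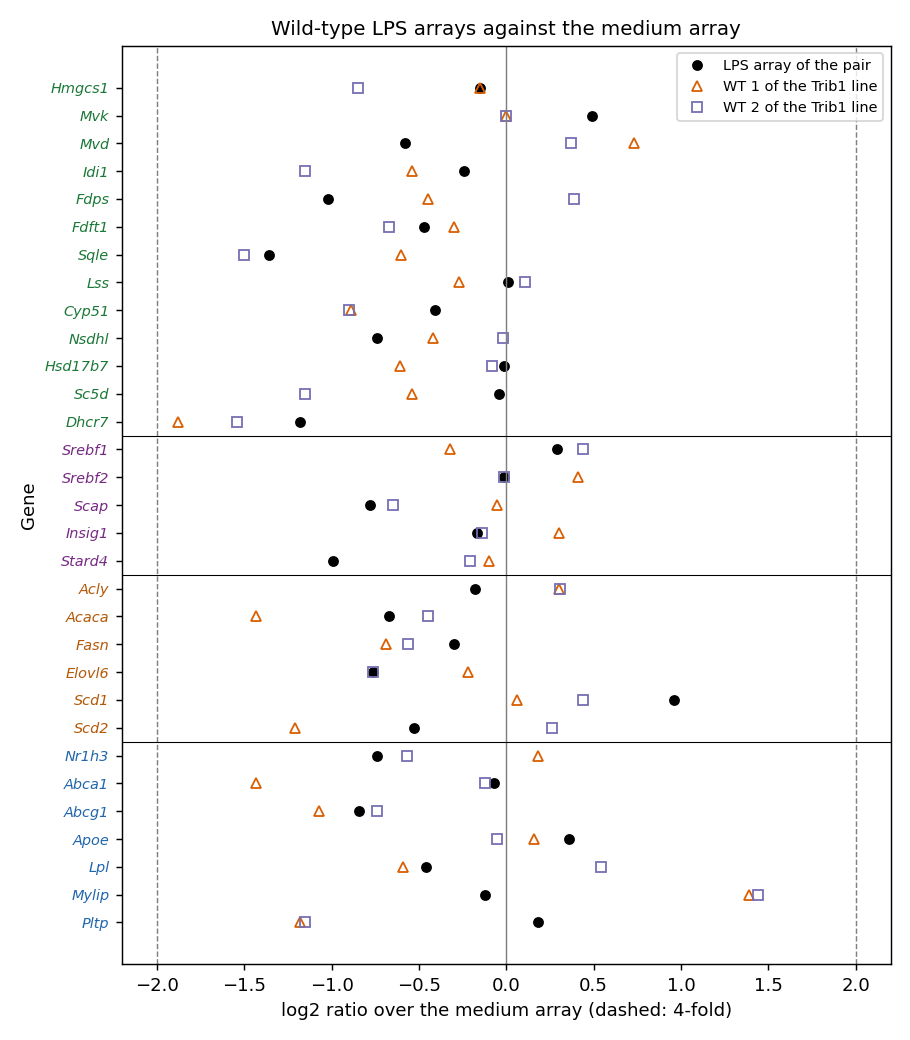
Points are log2 ratios over the single medium array for the LPS array of the pair (black circles) and wild type 1 (triangles) and 2 (squares) of the Trib1 line, by gene, with dashed lines at 4-fold. Most sterol synthesis points lie left of 0, Mylip lies at 1.39 and 1.44 on the Trib1-line arrays and at -0.12 on the pair, and no point crosses the 4-fold lines.

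Setting medium against the 3 wild-type arrays given LPS, limma called none of the 30 genes it covered (Benjamini-Hochberg adjusted p under 0.05 over all probe sets). It takes its spread from the LPS arrays and assumes that the lone medium array varies like them, and 2 of those 3 come from the Trib1 line, with the other sex and scaling. It called 0.206% of all genes higher and 0.00736% lower after LPS. At an unadjusted p under 0.05, 2 of the 30 were lower, Dhcr7 (log2 -1.53) and Abcg1 (log2 -0.88), and 0 were higher, where 5.32% of all genes were lower.

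Between genotypes, the lipoprotein lipase gene Lpl showed the widest difference of the list. Lpl, which frees fatty acids from triglyceride, measured 7648 and 16713 for wild type against 2639 and 7019 for the knockout label. Both knockout-labelled arrays lay under both wild-type arrays, but knockout-labelled 2 came within 1.09-fold of wild type 1. The mean difference was -1.39 on the log2 scale (SE 0.56, 95% interval -2.78 to -0.01, n = 2 per genotype; limma, adjusted p = 0.994), which did not pass. Without knockout-labelled 2 the difference was -2.10 and passed (adjusted p = 0.0394, limma), with the lone knockout-labelled array assumed to vary like the others. Leaving out knockout-labelled 1, wild type 2 or wild type 1 gave -0.69, -0.83 and -1.96, and none of these passed. The second Lpl probe set gave -1.46 with overlapping genotypes, at 2186 and 6572 against 799.5 and 2390. The LPS array of the pair, also wild type, measured 8317.

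Mylip had the smallest p of the list. It measured 1544 and 1595 for wild type against 1040 and 813.8 for the knockout label, a log2 difference of -0.77 (SE 0.20, 95% interval -1.26 to -0.28, n = 2 per genotype; limma, adjusted p = 0.892). The 2 groups did not overlap and their nearest arrays were 1.48-fold apart. Both arrays of the LPS pair lay under both knockout-labelled values, and with the LPS array added as a wild type the difference was -0.26.

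Of the 12 sterol enzymes tested, 3 (Fdps, Idi1 and Cyp51) had both knockout-labelled arrays under both wild-type arrays, an order held by 15.7% of all genes. Fdps measured 482.6 and 865.8 for wild type against 273.5 and 382.7 for the knockout label (log2 -1.0, SE 0.35, 95% interval -1.87 to -0.13, n = 2 per genotype; limma, adjusted p = 0.959). The wild-type LPS array of the pair read 324.8, between the knockout-labelled values, and without wild type 2 the difference was -0.58. Idi1 measured 332.6 and 218.2 against 204.4 and 126.2 (log2 -0.75, SE 0.38), with the nearest arrays of its groups 1.07-fold apart. Without knockout-labelled 2 the Idi1 difference was -0.40 and without wild type 1 it was -0.44, and its second probe set gave -0.87 with overlapping groups. Cyp51, the lanosterol demethylase, measured 242.6 and 241.4 against 187.5 and 121.4 (log2 -0.68, SE 0.33), and -0.37 without knockout-labelled 2. A dimmer Cyp51 probe set, above the floor on 4 of 6 arrays, gave 0.14, so the gene's probe sets disagree in sign.

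The other 9 tested sterol enzymes had overlapping genotypes on the probe set that represents them. Sqle, the enzyme most reduced on the LPS array, measured 228.3 and 122.7 on wild-type and 249.9 and 159.9 on knockout-labelled arrays (log2 0.26, 95% interval -0.80 to 1.31). Hmgcs1 measured 1497 and 922.1 against 1166 and 845.0, with log2 differences from -0.30 to -0.14 over the 4 of its probe sets above the floor. One of those 4 separated the genotypes, at 1041 and 1045 against 848.2 and 845.7 (log2 -0.30, nearest arrays 1.23-fold apart). A dimmer Fdft1 probe set did so as well, at 107.5 and 102.9 against 97.4 and 85.2 (log2 -0.21, nearest arrays 1.06-fold apart). Over the 12 sterol synthesis genes tested, 8 differences were under 0 and 4 above, where 48.9% of all genes were under 0. Their median was -0.21, against 0.01 over all genes, and they ran from -1.0 to 0.26. Leaving out 1 array moved that median to -0.34 (wild type 2), -0.37 (knockout-labelled 2), -0.26 (wild type 1) or -0.16 (knockout-labelled 1). With the median over each gene's probe sets it was -0.13. Probe sets above the floor on 4 or more arrays disagreed in sign for Hsd17b7, Sc5d, Mvd and Fdft1. The brightest gave -0.15, 0.25, 0.25 and -0.34 in that order. Others gave 0.36, 0.32 and -0.31 for Hsd17b7, -0.24 and -0.28 for Sc5d, -0.05 for Mvd and -0.21, -0.03 and 0.23 for Fdft1.

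Insig1 measured 1034 and 763.3 for wild type against 608.6 and 544.4 for the knockout label (log2 -0.63, SE 0.23, 95% interval -1.19 to -0.06, n = 2 per genotype; limma, adjusted p = 0.965). The groups did not overlap, and the LPS pair (842.9 and 749.1) lay with the wild-type arrays. Stard4 measured 190.4 and 176.9 against 164.0 and 86.7 (log2 -0.62, SE 0.40), a difference carried on this probe set by knockout-labelled 2. Without that array it was -0.16. Another Stard4 probe set gave -1.14, with overlapping genotypes. A further one gave -0.63, at 161.3 and 183.0 against 122.5 and 100.5, with both knockout-labelled arrays under both wild-type ones. Srebf1 (log2 0.06), Srebf2 (-0.20) and Scap (0.29) had overlapping genotypes on their brightest probe sets. The second Srebf2 probe set measured 458.1 and 508.1 against 394.8 and 345.3 (log2 -0.39), with both knockout-labelled arrays under both wild-type ones, 1.16-fold apart at the nearest. The median over the 5 sterol-sensing genes was -0.20. It was -0.54 without knockout-labelled 1, -0.41 without wild type 2, -0.32 without wild type 1 and 0.00 without knockout-labelled 2.

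Among fatty acid genes, Acly measured 1696 and 1714 on wild-type and 1426 and 1423 on knockout-labelled arrays, a small difference between tight groups (log2 -0.26, SE 0.16, 95% interval -0.66 to 0.14). The other Acly probe sets above the floor on all 6 arrays gave -0.50 and -0.20. One above it on 4 of 6 gave -0.45, with knockout-labelled 1 at 6.76, under the floor. Scd2, the second stearoyl-CoA desaturase, measured 52 and 143 against 38 and 60 (log2 -0.85, SE 0.58), with groups that overlap. Fasn measured 68.5 and 74.9 against 78.0 and 20.2, so only knockout-labelled 2, under the floor, stood low. Elovl6, Scd1 and Acaca differed by between -0.16 and 0.06 on their brightest probe sets. A dimmer Acaca probe set measured 36.2 and 58.8 against 59.1 and 64.4 (log2 0.42), with nearest arrays 1.01-fold apart, so its probe sets disagree in sign. The group's median of -0.21 became -0.56 without wild type 1 and -0.13 without knockout-labelled 2.

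The exporters pointed in opposite directions. Abcg1 measured 888.4 and 1115 on wild-type and 575.7 and 767.4 on knockout-labelled arrays (log2 -0.58, SE 0.24, 95% interval -1.17 to 0.00, n = 2 per genotype; limma, adjusted p = 0.998). Its dimmer probe set measured 119.6 and 190.2 against 62.3 and 35.3 (log2 -1.68). Abca1 measured 434.0 and 1076 against 1707 and 1162, the 1 gene of the list with both knockout-labelled arrays above both wild-type arrays (log2 1.04, SE 0.46, limma adjusted p = 0.999). The Abca1 difference came mostly from the low wild type 1: without that array it was 0.39, and the LPS pair (1168 and 1116) lay at the level of wild type 2. The dimmer Abca1 probe sets gave 0.63, with groups barely apart (134.2 and 309.0 against 309.6 and 319.3), and 0.73, with overlapping genotypes. Nr1h3 (log2 -0.19), Apoe (0.05) and Pltp (0.03) had overlapping genotypes. The median of the 7 LXR and efflux genes was -0.19, and 0.01 without wild type 1, -0.03 without knockout-labelled 1, -0.42 without wild type 2 and -0.40 without knockout-labelled 2.

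**Figure D3:**
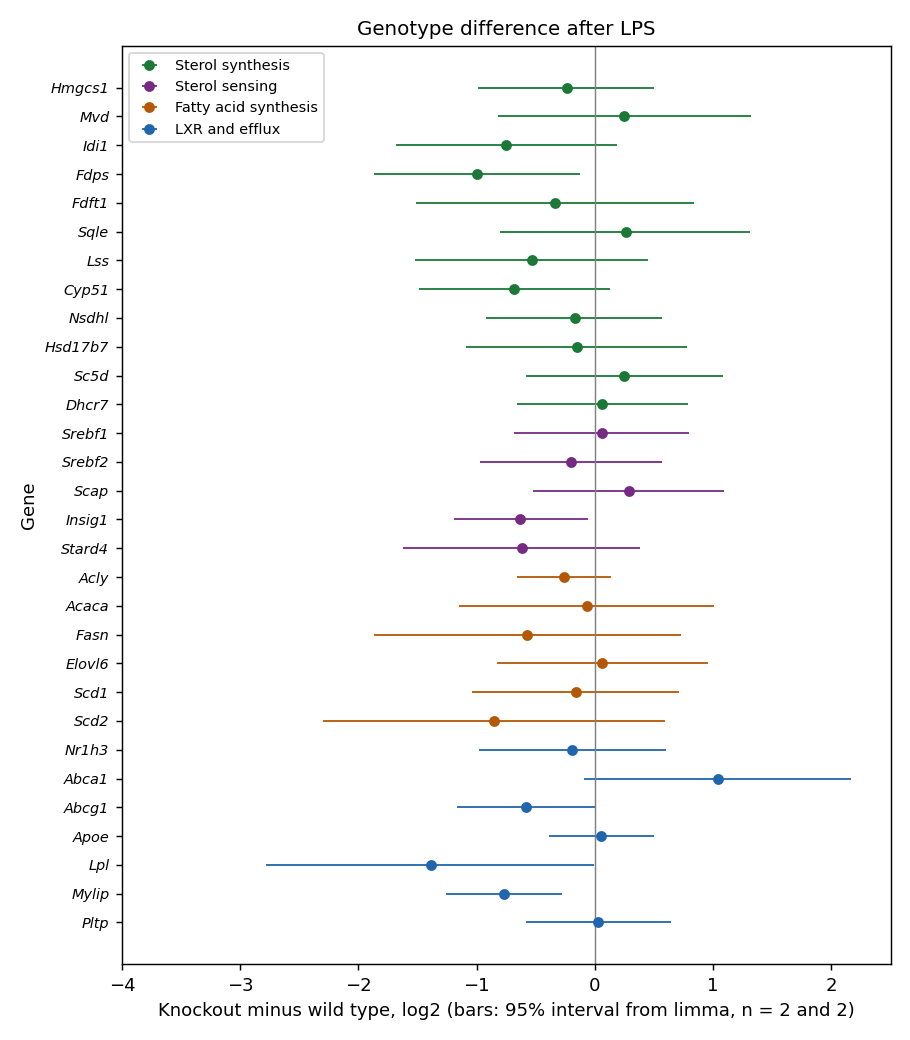
Points are knockout-labelled minus wild-type log2 differences for the 30 genes tested, coloured by role, with 95% intervals from limma (n = 2 per genotype). The intervals of Fdps, Insig1, Lpl and Mylip lie under 0 before adjustment and all others reach 0; none passed after adjustment over all probe sets.

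Over the whole list, none of the 30 genes tested passed the limma test (Benjamini-Hochberg adjusted p under 0.05), and none of the 29078 probe sets did, 0% in either direction. Leaving out 1 array gave between 5 and 68 calls among all probe sets. At an unadjusted p under 0.05, 4 of the 30 were lower (Fdps, Insig1, Lpl and Mylip) and 0 higher, where 2.76% of all genes were lower and 2.77% higher. Both knockout-labelled arrays lay under both wild-type arrays for 9 of the 30 genes, where 15.7% of all 13897 genes tested did, and above for Abca1 alone, where 16.9% did. Differences were under 0 for 20 of the 30, against 48.9% of all genes, and the median was -0.19 against 0.01. Genes driven by shared factors are not independent, and with 2 arrays on each side the smallest two-sided p of an exact permutation test is 0.333, so no p is given for these counts.

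Summed markers of some other cells differed between the genotypes on these arrays. The 5 mast cell markers summed to 521.9 and 736.4 on wild-type and 193.0 and 209.5 on knockout-labelled arrays, and the 4 B cell markers measured to 473.5 and 583.8 against 252.3 and 372.0. The 6 mesothelial and stromal markers summed to 387.3 and 572.4 against 660.0 and 1954. Of that last sum Col1a1 made up 861.8 and Col3a1 942.5. Msln was higher on both knockout-labelled arrays, at 37.8 and 58.0 against 19.3, under the floor, and 31.3. Upk3b, Wt1 and Krt19, at 45.3 or less, had overlapping genotypes once values under the floor were set to it. Of these 4 arrays, Upk3b and Krt19 cleared the floor on knockout-labelled 2 alone (33.8 and 32.0). None of these 3 lists had a marker under the floor on every array. Of the mast cell markers, Cpa3, Tpsb2 and Fcer1a were lower on both knockout-labelled arrays, while Kit (log2 -0.02) and Mcpt4 had overlapping genotypes. Neutrophil markers went both ways. Camp was higher (log2 2.02, under the floor on wild-type arrays) and Ltf lower (-1.33) on both knockout-labelled arrays, and Elane, Mpo and Ngp had overlapping genotypes. Among the 8 macrophage markers, 5 were higher on both knockout-labelled arrays, an order held by 16.9% of all genes. They were Itgam (log2 0.64), Cd14 (0.58), Adgre1 (0.40), Fcgr1 (0.21) and Cd68 (0.06). Mertk was lower on both (-0.12), Csf1r (0.04) and Lyz2 (-0.06) had overlapping genotypes, and none of the 8 passed (limma). In these bulk samples fewer cells of a type and less RNA per cell cannot be told apart. The part of these cells in the lipid gene values was not tested.

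Outside the list, 39 further genes of the same pathways had a probe set. After LPS the oxysterol-making enzyme Ch25h was 6.05-fold higher, from 2161 to 13081, and the Trib1-line wild types read 3749 and 11779. Nceh1, a cholesteryl ester hydrolase, went from 1894 to 417.7 (4.54-fold lower), and the Trib1-line wild types read 698.1 and 477.7. These were the 2 of 38 measurable genes past 4-fold, where 1.21% of all genes were 4-fold higher and 0.672% 4-fold lower. At 2-fold Npc1, which exports cholesterol from lysosomes (1562 to 650.8), and Acss2, which makes acetyl-CoA from acetate (185.1 to 68.6), were lower as well, and both lay under medium on all 3 wild-type LPS arrays. With Nceh1, 3 of the 38 were at least 2-fold lower, where 6.72% of all genes were. Ch25h was the 1 at least 2-fold higher, where 5.44% of all genes were. For 30 of the 38 the LPS array was under medium, against 58% of all genes. Their median log2 ratio was -0.30, the same as over the 31 listed genes, against -0.11 over all genes.

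For genotype none of the 38 tested passed (limma). At an unadjusted p under 0.05 (limma), 3 were higher and 2 lower, where 2.77% of all genes were higher and 2.76% lower. The apolipoprotein genes Apoc1 and Apoc2, known LXR targets that lie in a cluster with Apoe, stood farthest apart. Apoc2 measured 383.8 and 109.1 on wild-type and 1258 and 707.5 on knockout-labelled arrays (log2 2.21, SE 0.63, 95% interval 0.65 to 3.76, n = 2 per genotype; limma, adjusted p = 0.918). On the LPS pair, also wild type, Apoc2 measured 948.2 and 817.4, above knockout-labelled 2. Apoc1 measured 41.7 and 26.8, the latter under the floor, against 151.5 and 130.5 (log2 1.99, SE 0.37; limma, adjusted p = 0.787), and 19.0 and 40.4 on the LPS pair. Apoe, next to them, measured 22849 and 19774 against 23297 and 20865.

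The third gene higher at that p was Abca7, a transporter related to Abca1, at 66.2 and 38.0 against 112.7 and 104.5 (log2 1.11). Those lower were Nceh1, at 698.1 and 477.7 against 292.5 and 342.8 (log2 -0.87), and the lysosomal lipase gene Lipa, at 5040 and 5646 against 4038 and 3977 (log2 -0.41). Among further sterol enzymes Pmvk, the phosphomevalonate kinase, measured 251.3 and 178.3 against 138.0 and 124.4 (log2 -0.69, SE 0.32), and Msmo1, the C4 sterol oxidase, 818.3 and 545.3 against 657.0 and 514.9 (log2 -0.20). Of the further fatty acid genes with the smallest p, Me1 (log2 0.58) had overlapping genotypes, and so had the brightest probe set of Acsl4 (0.44). The other 2 Acsl4 probe sets had both knockout-labelled arrays above both wild-type ones, the brighter at 624.7 and 639.5 against 933.6 and 822.4 (log2 0.47) and the other with a log2 difference of 0.55. The median over the 38 genes was 0.03, close to the 0.01 of all genes.

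**Figure D4:**
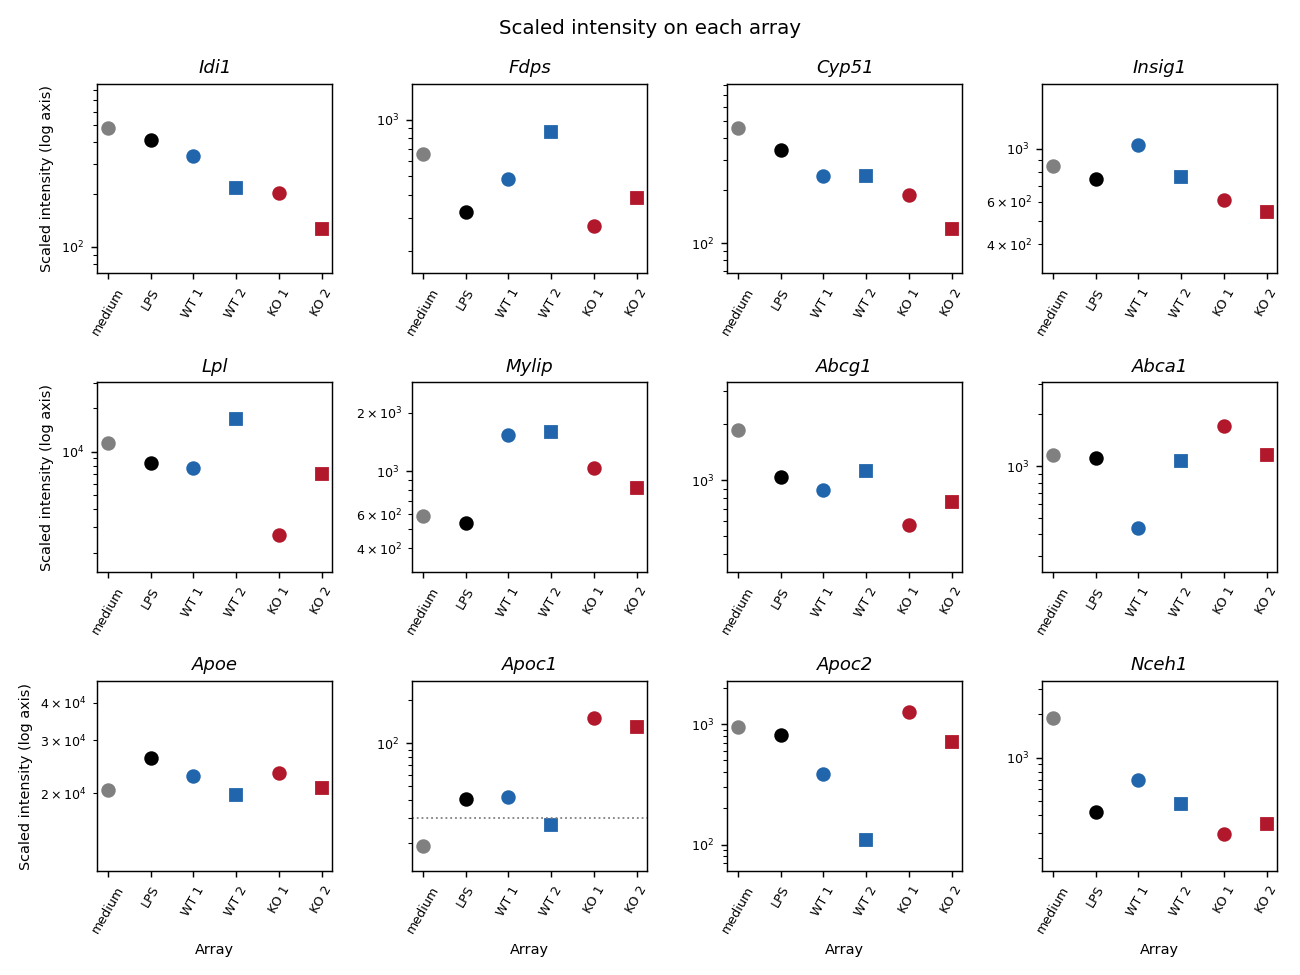
Scaled intensity (log axis, its range set per gene) of 12 genes on each array: medium and LPS of the pair in grey and black, wild-type Trib1-line arrays in blue and knockout-labelled arrays in red, with squares for number 2 and a dotted line at the floor of 29.9. Idi1, Fdps, Cyp51, Insig1, Lpl, Mylip and Abcg1 are lower on both red arrays than on both blue ones, Abca1, Apoc1 and Apoc2 are higher, and Apoe stays between 19774 and 26269.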

How the data were processed

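Per the labels, the authors made the deposited intensity values with MAS5 from total RNA; version, scaling target and detection calls are not given in the sources used here. Their trimmed means (2% off each end) were 500.0 on the LPS pair and between 95.5 and 106.6 on the other arrays, so all were rescaled to 233.9. Of 45101 probe sets, 64 controls were left out. Values under the pooled 40th percentile (29.9) were set to it, and log2 was taken. The genotype test was limma 3.58.1 (R 4.3.3; lmFit, eBayes with trend, two-sided), adjusted by Benjamini-Hochberg over the 29078 probe sets that cleared the floor in 2 or more of 4 arrays; the method was tested on simulated data. For LPS against medium, 1 array each, ratios are given without a test. Shares of all genes use 1 probe set per gene.

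Members, lists and rules were chosen with earlier results of these data known. Genes were given in full if at least 2-fold apart in the LPS pair or among the 10 smallest genotype p-values; others named with values, among them Abca7, Apoc1, Apoc2, Lipa, Npc1 and Acss2, were picked after their values were seen. Alternatives were other scalings, floors and filters, the label number as a block, each array left out, the LPS array as a wild type, no trend, 1 probe set per gene and other LPS arrays. Figures used matplotlib 3.10.9.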

Additional observations from a re-analysis of the deposited data

How the results depend on the processing

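Settings were run for 10 genes by genotype, 3 genes by LPS and the medians of the 4 groups, and 2 arrays per genotype and 1 per LPS condition limit every value. Leaving out 1 array gave 5 to 68 genotype calls among all probe sets in place of 0, and 0 to 1 among the lipid genes (Lpl, without knockout-labelled 2). Over the same settings the genotype median ran from -0.37 to -0.16 for sterol synthesis, -0.54 to 0.00 for sterol sensing, -0.56 to -0.13 for fatty acid synthesis and -0.42 to 0.01 for LXR and efflux genes. With the number of the labels as a replicate block, limma called 116 probe sets, 85 higher and 31 lower, and 1 lipid gene, Lpl (adjusted p = 0.0113). No label ties the numbers to shared mice or days; deviations of same-numbered arrays correlated at 0.35 across probe sets, which 2 pairs cannot settle. For LPS against medium, the 2-fold rule gave 3 genes in place of 0. With wild type 2 of the Trib1 line in place of the LPS array, the median log2 ratio was -0.76 for sterol synthesis (12 genes, without Mvk, under the floor on both arrays) and -0.09 for fatty acid synthesis. With wild type 1 it was -0.59 for LXR and efflux genes, against -0.12 with the LPS array. Limma against 3 arrays gave -0.38 for LXR and efflux genes, and the median over a gene's probe sets gave -0.20 for fatty acid synthesis. The cause of these shifts was not tested. Fdps, lower on the LPS array, was at 0.39 with wild type 2 in its place. All 10 genes with the smallest genotype p kept their sign under all settings run. Their groups did not overlap, so leaving out 1 array could not change a sign. The block, trend and filter settings left the difference itself unchanged. Settings for single genes did not swap the probe set, and a dimmer Cyp51 probe set gave 0.14.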
